A study of Mus musculus with 20 samples.

Results

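The promoters of 44 nuclear receptor genes, among them Rara and Pparg, were followed in hematopoietic stem cells (HSCs) from mice given serial cycles of 5-fluorouracil (5FU), a nucleobase analogue that kills dividing cells. Methylation was measured by reduced representation bisulfite sequencing (RRBS), which reads CpG sites in restriction fragments rich in CpG, and is given as the percent of methylated CpG calls per bin of 100 bp. The groups were untreated mice (0x, 4 samples) and mice given 2 cycles (2x, 6 samples), 4 cycles (4x, 4 samples) or 10 cycles (10x, 6 samples). Mice were female C57BL/6J, 3 months old when treatment began, and received 1 intraperitoneal injection of 5FU per 3 weeks. The labels give no age at sampling. HSCs were sorted from bone marrow 1 month after the end of treatment as Lin- cKit+ Sca1+ CD34- Flk2- CD150+ cells, although the sample labels give blood as the tissue and C57BL/6 as the genotype. Nothing in the labels says that every sample is a separate mouse, so each p-value here reflects only the scatter among the samples given, part of which may be technical.

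A bin was a member if its centre lay within 1 kb of any RefSeq transcription start site (TSS) of a listed gene in GRCm38 (mm10). This gave 721 of 1201951 bins, with 2 to 50 bins per gene, a median of 15.5, and at least 1 bin for each of the 44 genes. The deposited values carry no read numbers, so the depth is unknown. The methods state that bins missing in a sample were filled with the mean of its group, and filled values are not marked. An intermediate value found more than once in a group, to the last digit, can therefore be a filled one. Such repeated values occurred in 267 member bins, 37% of them, against 36.8% of all promoter bins, and these bins are described apart at the end. Some of their values also recur across groups. An Nr2f6 bin (chr8:71380300-71380399) held 27.8% in every sample of 0x, 4x and 10x. Filling may therefore not always have used the mean of 1 group alone, and how these values arose was not tested. Of the bins without repeated values, 146 varied within every group, and these carry the comparisons. They lie in 36 genes and are part of 84131 such bins in the genome. Where only 1 sample of a group was missing, its filled value does not recur. These bins can therefore still hold filled values, which lower the spread. The other 308 bins without repeated values had at least 1 group at 0 or 100 throughout, and in 121 of them all 20 samples held the same value, 0 in 85 and 100 in 36. No bin of the first kind was left for Ppard, Rorb, Nr1h2, Nr1h4, Nr1i2, Nr1i3, Hnf4a and Nr2c1, which appear below with their deposited levels only.

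Nuclear receptors are transcription factors, many of which bind a small lipophilic ligand such as retinoic acid, a fatty acid, an oxysterol, a steroid or thyroid hormone, and then switch between corepressor and coactivator complexes at their target genes. Retinoic acid receptors (RAR), peroxisome proliferator-activated receptors (PPAR), thyroid hormone, vitamin D and oxysterol receptors bind DNA together with a retinoid X receptor (RXR), whereas steroid receptors bind as pairs of the same protein and some orphan receptors, such as those of the NR4A family, have no known natural ligand or act without one. Retinoic acid signalling is known for keeping HSCs dormant, and in many tissues dense CpG methylation at a promoter goes with a silent gene.

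The sequences below show the kinds of promoter region the results turn on, 1 bin of 100 bases each, 5′ to 3′ on the strand of the gene, with every CpG, the site that RRBS measures, in capitals. All are from RefSeq GRCm38. The first 4 were fully methylated in 0x and belong to receptors of liver and gut, with 2 or 3 CpG each: Hnf4a (chr2:163547700-163547799, plus strand, intron), Nr1h4 (chr10:89506500-89506599, minus strand, coding exon), Nr1i2 (chr16:38293800-38293899, minus strand, intron) and Nr1i3 (chr1:171214200-171214299, plus strand, intron).
Hnf4a: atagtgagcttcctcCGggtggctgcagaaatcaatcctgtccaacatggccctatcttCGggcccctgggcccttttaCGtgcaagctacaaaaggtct
Nr1h4: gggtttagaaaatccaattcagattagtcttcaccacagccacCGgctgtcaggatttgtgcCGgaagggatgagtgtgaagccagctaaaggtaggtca
Nr1i2: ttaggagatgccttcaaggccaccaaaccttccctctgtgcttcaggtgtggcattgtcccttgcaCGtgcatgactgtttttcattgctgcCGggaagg
Nr1i3: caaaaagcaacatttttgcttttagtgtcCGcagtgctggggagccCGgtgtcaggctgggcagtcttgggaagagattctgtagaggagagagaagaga

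The next 3 were nearly unmethylated in 0x, at 0.639%, 1.35% and 2.35%, and hold 8, 19 and 23 CpG: Rara (chr11:98937900-98937999, plus strand), Rxra (chr2:27677000-27677099, plus strand) and Nr2f2 (chr7:70361200-70361299, minus strand), all in introns.
Rara: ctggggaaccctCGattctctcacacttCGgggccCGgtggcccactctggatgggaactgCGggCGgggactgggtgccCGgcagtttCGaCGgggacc
Rxra: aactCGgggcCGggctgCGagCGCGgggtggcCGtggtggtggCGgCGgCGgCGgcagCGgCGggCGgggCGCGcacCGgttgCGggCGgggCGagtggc
Nr2f2: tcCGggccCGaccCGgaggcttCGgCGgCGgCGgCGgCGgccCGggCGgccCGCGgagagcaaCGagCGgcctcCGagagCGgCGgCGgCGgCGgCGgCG

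The last 4 are bins outside UTRs that are described with their genes below: Esrrg (chr1:187651300-187651399, plus strand, intron) and Nr2e1 (chr10:42578500-42578599, minus strand, intron), Rarb (chr14:16576000-16576099, minus strand, intron) and Nr2f1 (chr13:78199400-78199499, minus strand, upstream of the gene).
Esrrg: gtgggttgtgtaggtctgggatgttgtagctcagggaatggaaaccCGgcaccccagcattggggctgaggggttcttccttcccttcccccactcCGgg
Nr2e1: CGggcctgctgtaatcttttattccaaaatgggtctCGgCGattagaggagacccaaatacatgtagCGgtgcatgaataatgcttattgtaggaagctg
Rarb: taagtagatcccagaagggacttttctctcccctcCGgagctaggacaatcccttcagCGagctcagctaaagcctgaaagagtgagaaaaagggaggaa
Nr2f1: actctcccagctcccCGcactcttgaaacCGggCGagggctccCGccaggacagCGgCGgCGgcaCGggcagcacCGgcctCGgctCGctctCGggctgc

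Most nuclear receptor promoters were sparsely methylated in untreated HSCs. Over all deposited bins of a gene, the mean in 0x was under 10% in 23 of 44 genes, which is 52.3%, against 33.3% of the 28051 genes with a promoter bin. It lay between 10 and 50% in 16 genes, at 84.0% in Nr2e3, a photoreceptor-specific receptor of the retina, and over 90% in 4 genes, or 9.09%, against 22.7% of all genes. The 4 genes were Nr1h4, the bile acid receptor FXR (100%), Nr1i3, the xenobiotic receptor CAR (100%), Hnf4a, a master regulator of hepatocytes (97.9%), and Nr1i2, the xenobiotic receptor PXR (97.9%). Bins with more CpG were less methylated, among the members as among all promoter bins. The 551 member bins under 10% in 0x held a median of 7 CpG, the 99 bins between 10 and 90% a median of 4, and the 71 bins over 90% a median of 2, and the medians over all promoter bins were 7, 3 and 2. The cut site of MspI, CCGG, which RRBS uses, was present in 565 of 721 member bins (78.4%). The receptor half-site AGGTCA, searched on both strands, was present in 30 member bins (4.16%) and in 11 of 61 member promoter windows of RefSeq (18%), from 250 bases before to 50 after a start, against 16.3% of all 32851 such windows.

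**Figure D1:**
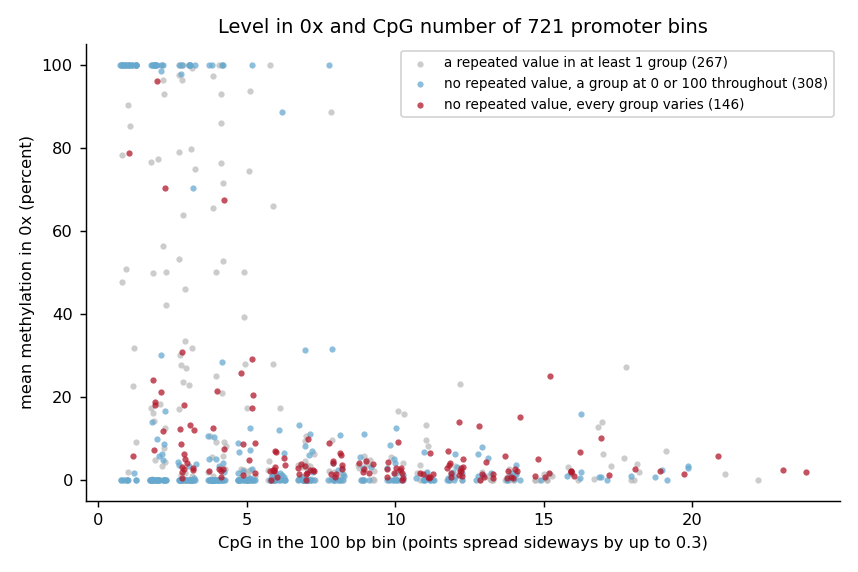
Mean methylation in 0x (percent) of the 721 promoter bins against the number of CpG in the bin. Bins at 100% hold few CpG, with a median of 2 in the 71 bins over 90%, and the 146 bins that vary in every group (red) lie mostly near 0.

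Levels by family follow. REV-ERB and ROR receptors, which set circadian transcription, were the least methylated family with a deposited mean of 2.97% (0x), 2.67% (2x), 4.16% (4x) and 3.27% (10x) over 50 bins. NR4A receptors, immediate early genes that restrain HSC proliferation in mice, had means of 6.97%, 7.98%, 7.89% and 8.26% in the same order, with Nr4a2 and Nr4a3 at most 3.13% in every group and Nr4a1 between 21.7 and 24.3%. Oxysterol, bile acid and xenobiotic receptors were the most methylated family (37.3%, 36.1%, 32.3% and 36.7%) but held both extremes, since Nr1h2 and Nr1h3, the oxysterol receptors LXR, were at 3.07% and 5.41% in 0x. Retinoid receptors averaged 15.4%, 14.9%, 15.7% and 17.5% over 131 bins, and PPARs 17.2%, 16.7%, 16% and 17.8% over 41 bins. Estrogen and estrogen-related receptors averaged 22.2%, 24.1%, 21.2% and 24.3% over 113 bins, with Esr1, the estrogen receptor alpha, at 41.3% in 0x. Steroid receptors stood at 7.56%, 8.38%, 8.27% and 7.87% over 49 bins, and Nr3c1, the glucocorticoid receptor, at 8.4% in 0x. Thyroid hormone and vitamin D receptors had 16.7%, 17.6%, 17.9% and 17% over 46 bins, and the family of HNF4, TLX, COUP-TF and testicular receptors 15.2%, 14.4%, 16.2% and 15.9% over 136 bins. In NR5A and NR6A receptors, regulators of steroid synthesis and of early development, the means were 24.9%, 20.4%, 21.1% and 19.6% over 50 bins. Nr5a2, a receptor of liver and of pluripotent cells, was picked after its values were seen. It was at 9.11% in 10x and 18.6% in 0x, with repeated values in 10 of its 20 bins. The 4 Nr5a2 bins that vary in every group showed no such fall, at 13.6% in 10x and 12.9% in 0x. Rxrg was at 29.7% in 10x and 18.1% in 0x, with repeated values in 4 of its 10 bins. The 4 Rxrg bins that vary in every group went the other way, at 3.41% in 10x and 6.89% in 0x. The number of genes under 10% was 23 (0x), 23 (2x), 24 (4x) and 24 (10x). Filled values enter all of these deposited means.

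**Figure D2:**
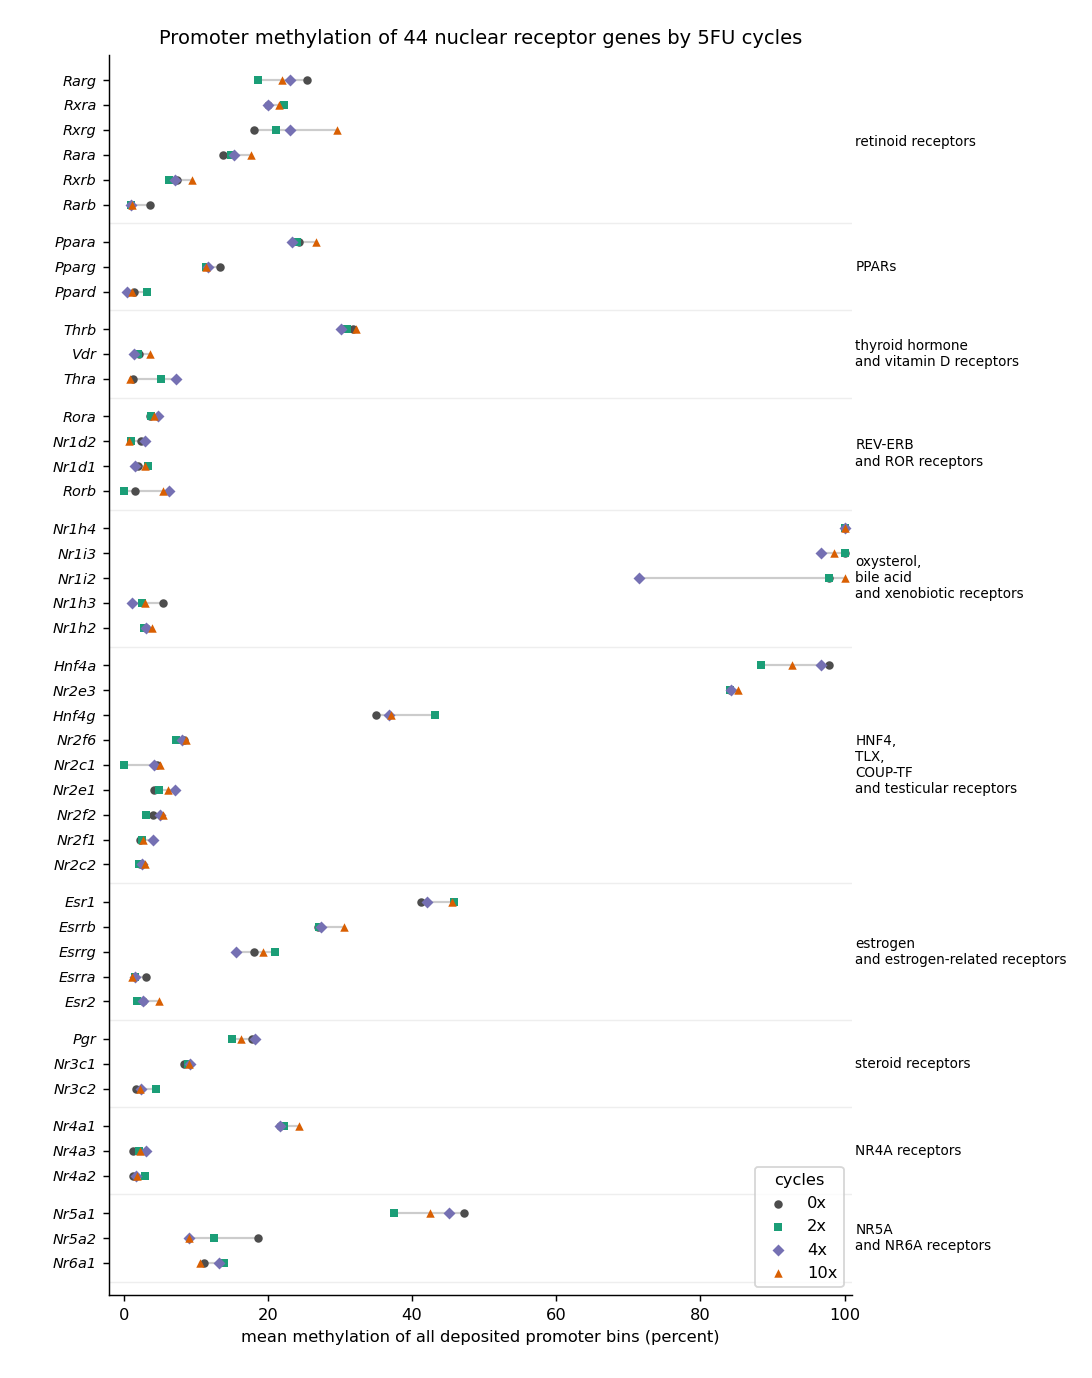
Mean methylation of all deposited promoter bins (percent, x axis) of each of the 44 genes, by family, in 0x, 2x, 4x and 10x (point shape and colour). The 4 genes over 90% in 0x stand apart, and the widest spread among the groups is that of Nr1i2 (71.4% in 4x against 97.9% in 0x), which has 2 bins with repeated values.

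No nuclear receptor promoter bin passed the threshold in any comparison. The threshold was an adjusted p under 0.05 in limma, with Benjamini-Hochberg adjustment over all 84131 bins, and at least 10 percentage points for the comparisons with 0x. In 2x against 0x, 0 of 146 bins were called, against 0.00357% of all bins, in 4x 0 against 0.00713%, in 10x 0 against 0.0131%, and on the slope over the number of cycles 0 against 0.00119%. The smallest adjusted p of a member bin was 0.54 (2x), 0.97 (4x), 0.38 (10x) and 0.98 (slope). At an unadjusted p under 0.05 and at least 10 points, 1 bin was found in 2x (all bins 2.86%), 0 in 4x (2.85%) and 5 in 10x (4.18%), and 5 on the slope with no minimum (3.56%). As shares of 146 these are 0.685% (2x), 0% (4x), 3.42% (10x) and 3.42% (slope), each under the share of all bins, and the difference of the shares was not tested. All bins are not like promoter bins here. A difference of at least 10 points, whatever the p, was found in 20.8% (2x), 18.2% (4x) and 17.3% (10x) of all bins. Among all promoter bins the shares were 11.4%, 9.6% and 8.92%, and among the members 8.22%, 7.53% and 8.9%. The share at an unadjusted p was not taken over promoter bins alone. The 3 comparisons share the 4 samples of 0x, and a difference between 2 treated groups was not tested.

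Promoter means gave no call either. Each mean was taken over the bins of a gene that vary in every group, and 36 members entered among 14842 genes. None was called in 2x (all genes 0%), 4x (0%), 10x (0.0337%) or on the slope (0%). At an unadjusted p under 0.05 there were 3 members in 2x (Rarb, Rxra and Nr2f1) and 1 in 4x (Rarb). In 10x there were 3 (Rarb, Hnf4g and Nr2e1) and on the slope 2 (Nr2e1 and Nr4a1). As shares of 36 these are 8.33% (2x), 2.78% (4x), 8.33% (10x) and 5.56% (slope). The shares of all genes were 3.29%, 3.76%, 6.01% and 3.67%, so the members were above them except in 4x. The difference of these shares was not tested. The median difference of the 146 bins was -0.15 (2x), -0.29 (4x) and 0.05 points (10x), each minus 0x, where the medians over all 84131 bins were 0.18, 0.32 and 0.51 points and those over the 32503 promoter bins 0.11, -0.05 and 0.04 points. Bins higher than in 0x numbered 69 (2x), 66 (4x) and 75 (10x). The mean of the 146 bins was 7.25 ± 0.991 (0x), 7.48 ± 0.856 (2x), 6.79 ± 0.207 (4x) and 7.12 ± 0.556% (10x; SD over samples), and the groups overlapped. The share of these bins at exactly 0 or 100 was 33.6 to 54.1% (0x), 50.7 to 67.1% (2x), 12.3 to 50.7% (4x) and 21.9 to 42.5% (10x) by sample, so the 2x samples held the most extreme values, and the part of this in the 2x results was not tested.

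**Figure D3:**
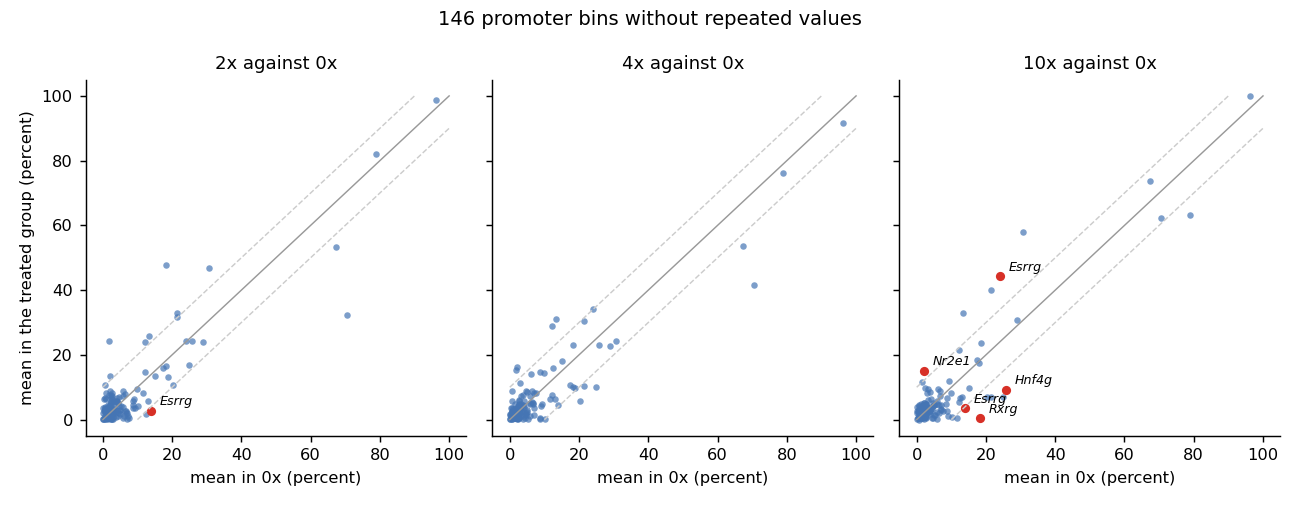
Mean methylation (percent) in 2x, 4x and 10x (y axes) against 0x (x axis) of the 146 bins without repeated values in which every group varies. Dashed lines mark 10 points either side of equality, and red points have an unadjusted p under 0.05 and at least 10 points, 1 in 2x, none in 4x and 5 in 10x.

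Rara encodes the retinoic acid receptor alpha, which turns retinoic acid levels into transcription. Its 11 RefSeq starts on chromosome 11 had 50 bins, the most of any member, of which 11 vary in every group, 20 hold repeated values and 7 are the same in all samples. Groups of 6 samples are given below by their lowest, median and highest sample. The mean of the 11 bins was 3.88, 5.86, 1.58 and 3.74% in the samples of 0x. In 2x it was 1.15, 3.33 and 9.39%, in 4x it was 3.81, 5.76, 6.63 and 2.79%, and in 10x it was 2.18, 5.30 and 8.26%. Each treated group overlapped 0x. The difference in 10x was 1.89 ± 1.39 points (standard error, adjusted p = 0.86 in limma), in 4x 0.98 ± 1.34 points (adjusted p = 0.98) and in 2x 1.03 ± 1.86 points (adjusted p = 1.0). The sign was not stable to the choice of bins, as the values in the closing part show. The Rara bin printed above, 231 bp after a start, had means of 0.639 (0x), 0.448 (2x), 2.31 (4x) and 2.18% (10x). The Rara bin with the highest mean of the 11 (chr11:98936600-98936699, intron) held 12.1 (0x), 24.1 (2x), 28.9 (4x) and 21.4% (10x), with samples between 0 and 66.7%. One Rara bin had an unadjusted p under 0.05 on the slope, at 0.71 ± 0.31 points per cycle (chr11:98927900-98927999, adjusted p = 0.98). Its means were 3.13%, 2.62%, 7.24% and 9.43% from 0x to 10x, with 0% in at least 1 sample of each group.

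Pparg encodes PPAR gamma, the fatty acid sensor that drives adipocyte differentiation. Of its 14 bins, 4 vary in every group, all at 5′ UTRs near its 11 starts on chromosome 6. Their mean was 12.2, 3.52, 5.38 and 8.13% in 0x. The 2x samples had 5.10, 8.89 and 19.4%, the 4x samples 16.5, 16.2, 8.87 and 7.10% and the 10x samples 8.50, 9.79 and 22.2%. No sample of 10x was below 8.50%, but the highest sample of 0x lay inside the range of each treated group. The differences were 4.68 ± 2.85 points in 10x (adjusted p = 0.86 in limma), 4.85 ± 2.87 points in 4x (adjusted p = 0.98) and 2.91 ± 3.03 points in 2x (adjusted p = 1.0). With all deposited bins of Pparg, filled values included, all 3 were negative, at -2.21 (10x), -1.90 (4x) and -2.15 points (2x). Those bins include a bin with repeated values, described below, at 50% in each 0x sample and 0% in each treated sample. Without sample 34 the difference in 10x was 2.64 points, and in 2x it was 1.06 points without sample 15 and 1.65 without sample 02 of 0x, against 4.53 without sample 01 of 0x. One bin held most of this, 7 bp after a start (chr6:115362200-115362299, 3 CpG), with 23.5, 0, 9.27 and 20.4% in 0x. The 2x samples had 0, 26 and 44.4%, the 4x samples 41.3, 42.5, 12.5 and 28.4% and the 10x samples 20.7, 25.1 and 63.6%. Its difference in 10x was 19.7 ± 8.84 points with an unadjusted p of 0.052 and an adjusted p of 0.81. The bin starting at chr6:115362000 had 4.35% in 10x and 4.68% in 0x, and the bin between them 8.25% in 10x and 9.77% in 0x.

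The RXR genes encode the partners of RAR and PPAR. Rxra, whose promoter mean rests on 5 bins, had 8.83, 4.90, 2.20 and 4.73% in 0x. The 2x samples had 7.85, 9.64 and 20%, the 4x samples 6.24, 5.67, 7.82 and 5.58% and the 10x samples 3.62, 5.03 and 9.53%. Only the highest sample of 0x reached the range of 2x, and the difference there was 6.76 ± 2.60 points (unadjusted p = 0.028, adjusted p = 1.0 in limma). It came mostly from 1 bin of 3 CpG (chr2:27678100-27678199), with 47.8 ± 33.3% in 2x against 18.1 ± 14.6% in 0x. In 10x the Rxra promoter differed from 0x by 0.52 ± 1.55 points. A Rxra bin of 10 CpG (chr2:27676700-27676799) had a slope of 0.35 ± 0.13 points per cycle (unadjusted p = 0.014, adjusted p = 0.98), and it ran 1.86, 4.04 and 6.73% in 10x, against 0, 0, 2.79 and 0% in 0x. Rxrb was low throughout, with promoter means of 1.48 ± 1.95 (0x), 1.64 ± 1.98 (2x), 2.15 ± 2.91 (4x) and 1.45 ± 1.64% (10x) over 2 bins. Rxrg ran between 1.85 and 6.00% in 10x, against 11.4, 0.03, 4.81 and 11.4% in 0x. The Rxrg difference was -3.48 ± 2.19 points in 10x (adjusted p = 0.86), and a single bin of 2 CpG (chr1:167598700-167598799) made most of it, with 0 to 2.50% in 10x against 39.2, 0, 0 and 33.3% in 0x. That bin stood at 100% in 1 sample of 2x and at 0% in the other 5.

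Rarb, a retinoic acid receptor that is itself induced by retinoic acid, was the retinoid receptor with the smallest p, and was picked after its values were seen. Its promoter rests on 1 bin of 2 CpG 574 bp before a start, printed above. The bin had 7.15, 4.34, 8.48 and 8.55% in 0x. The 2x samples had 0, 0.35 and 3.95%, the 4x samples 4.86, 3.02, 1.40 and 4.82% and the 10x samples 0.06, 3.28 and 5.07%. All 6 samples of 2x lay below all 4 of 0x, whereas 4x and 10x overlapped 0x through 1 sample of it at 4.34%. As a promoter, the difference was -6.04 ± 1.30 points in 2x (unadjusted p = 0.0011, adjusted p = 0.71 in limma), -3.61 ± 1.37 points in 4x (adjusted p = 0.98) and -4.19 ± 1.22 points in 10x (adjusted p = 0.63). With other bins of Rarb the differences were smaller, down to -1.92 points in 2x (bins within 2 kb) and -1.40 points in 10x (repeated values set to missing). The levels after 2, 4 and 10 cycles had no order by cycles, with a slope of -0.16 ± 0.16 points per cycle. Rarg averaged 5.80 (2x), 3.28 (4x) and 3.07% (10x), against 5.70% in 0x, over 7 bins.

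**Figure D4:**
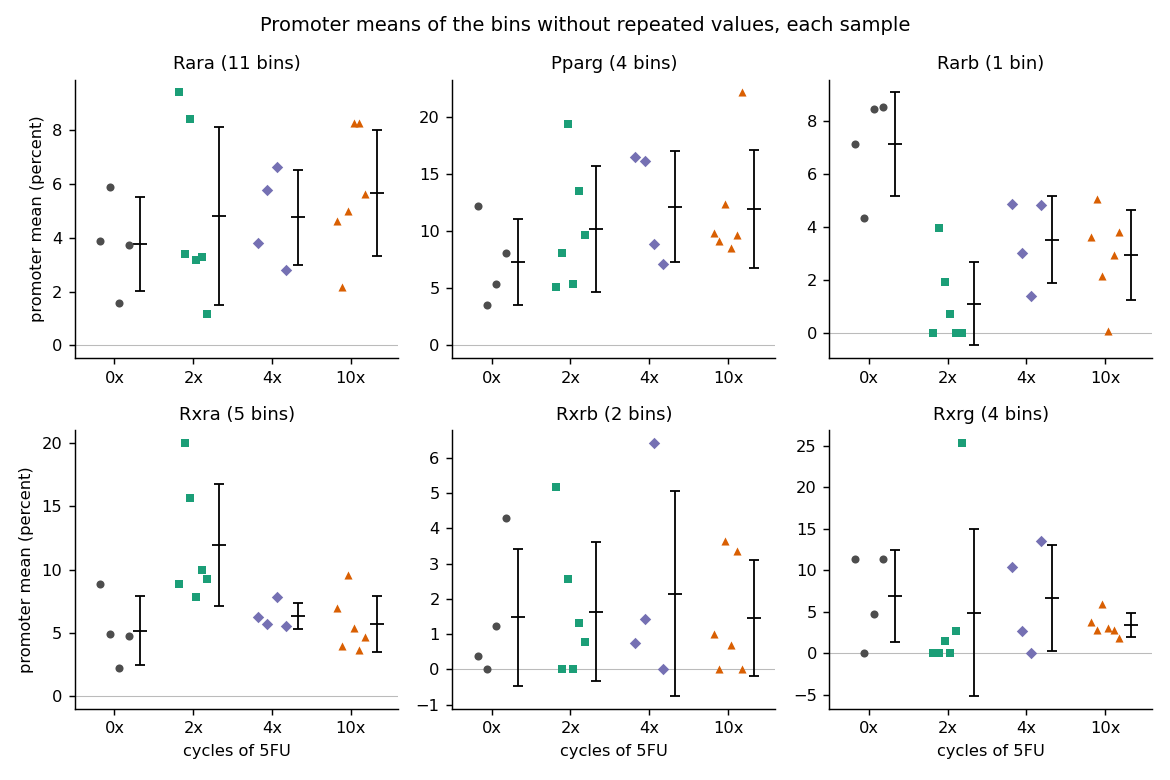
Promoter means (percent, y axes) of Rara, Pparg, Rarb, Rxra, Rxrb and Rxrg in each sample (points) by cycles of 5FU (x axes), with the mean and SD of each group (bars). Samples of the treated groups overlap those of 0x in each gene except Rarb in 2x, where the highest sample is at 3.95% and the lowest of 0x at 4.34%.

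Among bins that differed by at least 10 points, the groups did not overlap in 0 bins in 2x (0.458% of all bins), 1 in 4x (1.22%) and 2 in 10x (0.831%). Hnf4g, a relative of Hnf4a that is active in gut and kidney, held 1 of them in 10x, in the 5′ UTR 19 bp after its start (chr3:3508000-3508099). The samples were at 0, 11.7 and 18.1% in 10x, against 24.9, 29.1, 20.3 and 28.7% in 0x. The difference was -16.5 ± 3.99 points (unadjusted p = 0.0024, adjusted p = 0.38 in limma). In 2x the same bin was 0, 19.3 and 74.1%, and in 4x it was 28.0, 42.7, 21.1 and 0%, so the spread within these groups covered the whole range of 0x and 10x.

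Esrrg, an orphan receptor of the estrogen-related family that regulates mitochondrial genes in heart and muscle, held the other 2 and had 9 bins that vary in every group. The bin 43 bp after a start (chr1:187609000-187609099, 12 CpG) had 0, 3.81 and 7.19% in 10x, against 12, 26.4, 7.69 and 9.50% in 0x, a difference of -10.4 ± 3.57 points (adjusted p = 0.64 in limma). Without sample 02 of 0x, at 26.4%, it was -6.21 points, under the 10 points. It was the 1 bin with an unadjusted p under 0.05 in 2x, at -11.1 ± 4.15 points (adjusted p = 1.0). The bin 133 bp before another start (chr1:187651900-187651999, 17 CpG) had 0, 0.18, 0 and 0% in 4x, against 1.11, 23.0, 12.8 and 3.62% in 0x, or -10.1 ± 4.70 points (adjusted p = 0.97), and -5.81 points without sample 02 of 0x. A bin 409 bp before a start, printed above and chosen after its values were seen, went the other way, with 31.4, 42.3 and 58% in 10x, against 11.6, 37.5, 24.0 and 23.1% in 0x. It overlapped through 1 sample of 0x, and its difference was 20.3 ± 6.11 points (unadjusted p = 0.0084, adjusted p = 0.55). In 2x it covered 0 to 60%. Over its 9 bins the Esrrg promoter mean was 16.5 ± 2.62% in 10x, 13.4 ± 4.21% in 4x and 14.7 ± 5.58% in 2x, against 15 ± 0.886% in 0x.

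Nr2e1, Nr2f1 and Nr2f2 of the NR2 family, orphan receptors of neural and mesenchymal development, were singled out after their values were seen. Nr2e1, which maintains neural stem cells, had a bin 910 bp after a start (printed above) at 0.68, 16.5 and 24.3% in 10x, against 8.52, 0, 0 and 0% in 0x, or 12.9 ± 4.54 points (unadjusted p = 0.018, adjusted p = 0.65 in limma). One sample of 4x reached 46.4% there and the highest of 2x was at 6.52%. The Nr2e1 promoter mean over 7 bins was 8.98 ± 2.13% in 10x and 5.58 ± 1.97% in 0x. Nr2f1, which encodes COUP-TF1, had a bin of 12 CpG upstream of the gene, printed above, at 6.08, 7.74, 8.17 and 5.96% in 0x. In 2x it was 0% in 5 samples and 1.75% in the remaining 1, in 4x it was 1.66, 1.94, 2.03 and 0%, and in 10x it was 0, 5.15 and 5.93%. Every treated sample thus lay below the lowest sample of 0x. The difference was -6.70 ± 1.43 points in 2x (unadjusted p = 0.0011, adjusted p = 0.54), under the minimum of 10 points. In the wider fit described next, its adjusted p was 0.00043 at the same difference, so whether it passes 0.05 depends on the bins fitted. In 4x the difference was -5.58 ± 1.48 points (adjusted p = 0.97) and in 10x -2.59 ± 1.49 points (adjusted p = 0.85). Nr2f2, which encodes COUP-TF2, had 1 bin (chr7:70361100-70361199, 21 CpG) at 0, 0 and 2.27% in 2x, against 5.47, 9.94, 0.50 and 7.19% in 0x.

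**Figure D5:**
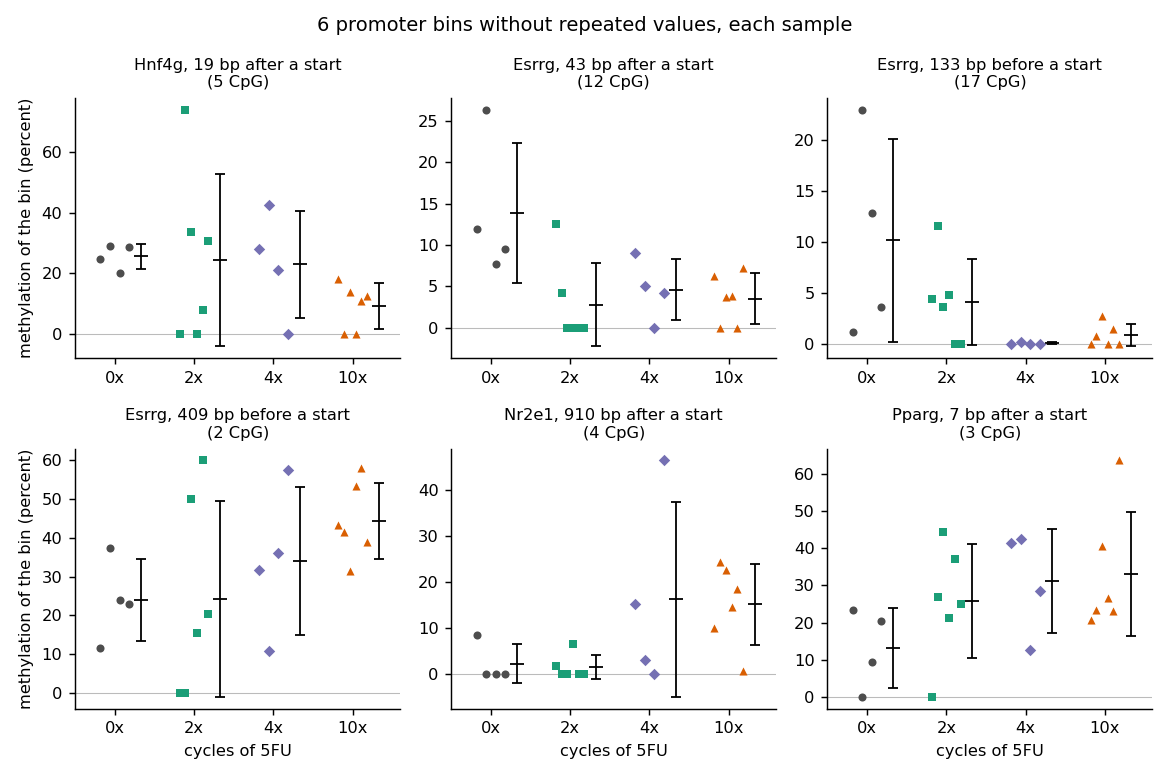
Methylation (percent, y axes) of 6 promoter bins in each sample (points) by cycles of 5FU (x axes), with the mean and SD of each group (bars). The Hnf4g bin and the Esrrg bin 43 bp after a start have no 10x sample inside the range of 0x, where the highest of 10x are at 18.1% and 7.19% and the lowest of 0x at 20.3% and 7.69%, and the Esrrg bin 133 bp before a start has its highest 4x sample at 0.18%.

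Bins without repeated values in which a group stood at 0 or 100 throughout were tested in a wider fit of 279834 bins with 332 members, where at least 1 group varies. At least 10 points and an adjusted p under 0.05 were reached by 0 members in 2x (0.562% of all bins), 0 in 4x (0.109%) and 0 in 10x (0.193%), and the slope called 0 (0.0765%). At an unadjusted p under 0.05, with 10 points except for the slope, there were 5 members for 2x (3.48%), 3 for 4x (2.4%), 5 for 10x (2.82%) and 21 for the slope (7.44%). Of the 21 slopes 19 were positive, a share that was not taken over all bins and so shows no rise particular to the members. Of these 21 bins, 14 had a group at 0 or 100 throughout. In these bins a group at 0 may hold filled values, since the mean of samples at 0 is 0. The 3 bins that follow were chosen after their values were seen. The smallest slope p was that of a bin in an intron of Nr2f2 218 bp after a start (chr7:70359700-70359799), which was 0% in all samples of 0x, 2x and 4x, with 3.17, 7.78, 30.0, 13.3, 17.2 and 0% in 10x (1.33 ± 0.34 points per cycle, adjusted p = 0.24 in limma). Nr5a1, a steroidogenic receptor of gonad and adrenal, had the next smallest (chr2:38714200-38714299), with 55.0, 80.9 and 100% in 10x, against 94.4, 100, 100 and 100% in 0x (-1.98 ± 0.51 points per cycle, adjusted p = 0.25). Nr1h3, the LXR alpha of macrophages and liver, had a bin with an unadjusted p under 0.05 in all 3 comparisons (chr2:91203100-91203199, 321 bp before a start). It was 13.6, 13.9, 36% and 50% in 0x. The 2x samples had 0, 0 and 7.95%, all 4x samples 0% and the 10x samples 0, 0 and 17.6%. The differences were -26.6 ± 7.09 (2x), -28.4 ± 8.56 (4x) and -23.9 ± 7.78 points (10x), with adjusted p of 0.40, 0.66 and 0.69 in limma.

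With repeated values included, calls appeared. When all 701483 deposited bins that vary were fitted, 596 members entered and 37 were called in 2x (14% of all bins), 21 in 4x (10%) and 20 in 10x (10.8%), and 26 on the slope (9.23%). Of 43 member promoters built from these bins, 6 were called in 2x (21.6% of all promoters), 6 in 4x (13.6%), 4 in 10x (15.4%) and 3 on the slope (9.4%). Higher and lower calls numbered 19 and 18 (2x), 8 and 13 (4x), 13 and 7 (10x), and 19 and 7 (slope). In 33 of the 37, 19 of the 21 and 16 of the 20 bins, at least 1 of the groups compared held a single value in all of its samples, and in 20, 15 and 11 of them both groups did. Such a group has no measured spread. Pparg has an example 234 bp after a start (chr6:115361900-115361999), with 0% in each of the 16 treated samples, against exactly 50% in the 4 samples of 0x. Rara has another (chr11:98938900-98938999, 1 CpG), with 100% in each sample of 4x and 10x, against 31.8% in each sample of 0x, and 0 to 100% in 2x. An Esrrg bin (chr1:187997100-187997199) had 44.4% in every sample of 2x, 4x and 10x, against 100% in all of 0x, so the same value recurs across the treated groups. Of the called bins, 1 varied in every group and had no repeated value, the Hnf4g bin above, whose adjusted p was 0.025 in this fit, against 0.38 over the 84131 bins. With repeated values set to missing, 2 bins were called in 4x, in Esrrg (chr1:187661400-187661499) and Esr1 (chr10:4632300-4632399), both at 0% in all samples of 4x and at 100% in all of 0x. In that fit of 411800 bins with 458 members, 0.93% of all bins were called in 4x, and 0 members were called in 2x (1.54%), 10x (0.788%) and on the slope (0.232%). Repeated values made up 8.04 (0x), 15.1 (2x), 5.27 (4x) and 7.12% (10x) of member values. Over all 721 deposited bins, filled values included, the mean was 16.2 to 17% in samples of 10x, against 15.3 to 16.1% in samples of 0x, an order that the 146 bins above do not show. The same mean was not taken over all deposited promoter bins, so it shows no rise particular to the members.

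Genes around the receptors were also without a call. Of 20 genes of retinoid supply and binding, the 6 retinoid receptors included, 16 had a promoter mean and none was called. Those at an unadjusted p under 0.05 numbered 2 in 2x (Rarb and Rxra, all genes 3.29%) and 2 in 4x (Rarb and Stra6, 3.76%). In 10x there was 1 (Rarb, 6.01%). Only Stra6 is not itself a receptor of the list above. The largest differences in 10x were those of Stra6, the cellular importer of retinol (33.5% in 10x, 24.1% in 0x), Cyp26c1, which degrades retinoic acid (95.7% in 10x, 88.1% in 0x), Rarb and Rxrg. In 4x Stra6 stood at 47.4, 40, 71.0 and 49.8%, above all samples of 0x at 5.71, 18.9, 37.8 and 33.9%, a difference of 27.9 ± 8.97 points (unadjusted p = 0.016, adjusted p = 0.98 in limma). The Stra6 mean rests on 2 of its 15 bins. Over all deposited bins, filled values included, Stra6 was at 49.0% (0x), 52.1% (4x) and 46.8% (10x). By that measure Stra6 and Rxrg went the other way in 10x, whereas Cyp26c1 and Rarb kept their direction. Of 16 coregulators 15 were tested with none called and none at an unadjusted p under 0.05 in a comparison with 0x, and their median difference in 10x was -0.38 points. The largest were Ppargc1b, a coactivator of mitochondrial genes (2.04% in 10x, 5.35% in 0x), Ep300, a histone acetyltransferase (2.44% and 4.96%), Hdac3, the deacetylase of the corepressor complex (2.99% and 0.64%), and Med1, a Mediator subunit that binds receptors (2.25% and 0.16%). The Hdac3 and Med1 means rest on 1 bin each. Over all deposited bins both were lower in 10x, Hdac3 at 1.24% against 3.98% in 0x and Med1 at 10.1% against 13.3%. Ppargc1b and Ep300 were lower in 10x by both measures. Med1 had an unadjusted p of 0.043 on the slope, at 0.23 ± 0.10 points per cycle (adjusted p = 0.98 in limma). Of 15 targets of PPAR and LXR 8 were tested, and of 10 chaperones and targets of steroid receptors 9, with none called and none at an unadjusted p under 0.05 in any comparison. Lpl, lipoprotein lipase, was at 2.85% in 10x and 6.89% in 0x, and Tsc22d3, a target of glucocorticoids, at 33% and 30.2%. Markers of the sorted cells and of other blood cells differed in level as a description of the samples. HSC marker promoters had a deposited median of 4.47% in 0x over 8 of 9 genes with bins, T cell markers 78.3% over 5 of 6, B cell markers 43.0% over 6, myeloid markers 51.5% over 3 of 6 and erythroid markers 23.0% over 3 of 5. No marker promoter was called in a comparison with 0x.

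At the edge of the window, the 30 bins with centres 900 to 1000 bp from a start averaged 33.5% in 0x, and the 27 bins just outside, at 1000 to 1100 bp, 20.1%. Within the window the deposited mean in 0x was 11.2% in the 355 bins under 250 bp from a start, 16.1% in 175 bins at 250 to 500 bp and 23.8% in 191 bins beyond, and the means in 10x were 11.1%, 16.5% and 26.2%.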

How the data were processed

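The data are RRBS libraries of sorted HSCs from 20 samples. The authors deposited, for each sample, the percent of methylated CpG calls per bin of 100 bp in mm10. The submitters' processing notes name Trim Galore 0.4.3, Bismark 0.23.1 and methylKit 1.22.0, and the methods state a coverage of more than 10 reads. By the methods, bins missing in a sample were filled with the mean of the group, which lowers the spread within groups and is not marked. Some values recur across groups, so filling may not always have been by group. No read numbers are in the files, so depth and counting error are unknown. A bin starting at S was taken as S to S + 99, and its centre had to lie within 1000 bp of a RefSeq start. Percent values were fitted with limma 3.58.1 in R 4.3.3, each treated group against 0x with those samples alone and the slope on cycles with all 20 samples, and p-values were adjusted by Benjamini-Hochberg over all 84131 bins or 14842 promoters without repeated values. Bins needed an adjusted p under 0.05 and 10 points. The scripts were tested on simulated data. The members, gene lists and tests were chosen with earlier results of these data known. By rule, the text names Rara, Pparg, the RXR genes and the bins of at least 10 points whose groups did not overlap. It also names the 4 genes of a list with the largest difference in 10x. Most other genes described for a difference are marked as chosen after their values were seen. Alternatives were other bins, windows, transcripts, blocks and left-out samples.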

Additional observations from a re-analysis of the deposited data

Results flagged for a closer look

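Among 40 groups of samples checked in the named promoters and bins, 4 had 1 sample flagged. The flag rests on the gap to the nearest sample as a share of the range of the group. Its rate of about 1 in 20 by chance holds for normal values. Percents that pile up at 0 are not normal, so the 4 cannot be read as an excess. In the Pparg promoter mean of 10x, sample 34 stood at 22.2%, and the next highest sample at 12.4%. In the Rxrg promoter mean of 2x, sample 18 stood at 25.3%, and the next highest at 2.73%, since 1 bin of Rxrg was at 100% in it. In the Esrrg bin 133 bp before a start, sample 06 of 4x held 0.18% and the other 3 samples 0, where any value above 0 would have been flagged. In the Esrrg bin 43 bp after a start, sample 03 of 2x held 12.5% and the next highest sample 4.19%.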

How the results depend on the processing

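No paired analysis was possible because the groups share no replicate numbers in the labels. The planned coverage minimum of 20 reads was not run, since the values carry no read numbers. With all deposited bins that vary, filled values included, called member bins numbered 37 (2x), 21 (4x), 20 (10x) and 26 (slope), against 14%, 10%, 10.8% and 9.23% of all bins, and called promoters 6, 6, 4 and 3 of 43, against 21.6%, 13.6%, 15.4% and 9.4% of all promoters. With repeated values set to missing, 2 of 458 bins were called in 4x, against 0.93% of all bins. The Hnf4g bin reached an adjusted p of 0.025 in 10x only with all deposited bins. The median difference of the member bins in 2x, -0.15 points, was -0.36 with curated RefSeq transcripts and 0.029 with the 2 series of label numbers as a block, and it ran from -0.44 without 2x sample 15 to 0.18 without 0x sample 01. The sign of the Rara difference was not stable. In 2x it was -1.18 points with bins in which at least 1 group varies, -1.55 with repeated values missing, -2.31 within 2 kb and -0.013 with curated transcripts. In 4x it was -0.74 within 500 bp and -1.12 with curated transcripts, and in 10x -0.11 where at least 1 group varies and -0.50 within 2 kb. With all deposited bins the Pparg difference was -2.15 (2x), -1.90 (4x) and -2.21 points (10x). Those bins include the Pparg bin 234 bp after a start, at 50% in each 0x sample and 0% in each treated sample. The cause was not tested. Without any single sample, the number of called member bins and promoters was 0 in each comparison. Otherwise, counts stayed within 1.5 times and medians within 1 SD between samples in 221 pairs of a result and a setting, and named genes kept their direction and their side of the threshold in 200. Medians had the opposite sign in 4 of 19 settings for 2x, 4 of 19 for 10x and 0 of 17 for 4x. They were exactly 0 in 2 settings for 2x, 0 for 10x and 3 for 4x.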
